A study of Mus musculus with 8 samples.

Results

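The TNF superfamily is a set of related cytokines and the receptors that bind them. Its members were taken by a fixed list of gene symbols, of which 46 were found among the 18540 genes of the count table: 18 ligands, 27 receptors and Edaradd, the adaptor of one of the receptors. Of these, 40 were grouped as immune members, 5 as the ectodysplasin and Tnfrsf19 members, and 1 as Ngfr, the low-affinity neurotrophin receptor. The 5 are called hair members below, with Eda2r among them only as a receptor of an ectodysplasin isoform. The rule uses family membership and no measured value. RNA was sequenced from the wound skin of mice in 2 groups of 4 samples each. The control group (con1, con2, con3 and con5) received PBS, and the ZCZ group, whose samples carry the label shiyan (shiyan1, shiyan2, shiyan4 and shiyan5), received the composite ZCZ, in which zinc peroxide and cerium oxide are held in the metal-organic framework ZIF-8, for 15 days. The labels name neither agent, and the groups were tied to them through the sample numbers used in the study. The study worked with C57BL mice of 6 weeks and db/db mice of 10 weeks, the latter a diabetic strain with a defective leptin receptor. The sources used here do not state which strain was sequenced. The study made 2 wounds on each mouse, so samples may share a mouse and p-values then measure only the spread between these samples.

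TNF superfamily ligands are mostly membrane proteins that act as trimers and bind receptors on neighbouring cells. Receptors with a death domain, such as Tnfrsf1a and Fas, can start caspase-driven or necroptotic cell death, and most others recruit TRAF adaptors that activate NF-kappaB. In skin, Tnf and its receptors are known from inflammation, the costimulatory pairs from the contact of T cells with antigen-presenting cells, and the ectodysplasin pathway from the formation and growth of hair follicles.

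Totals were 28856790 to 38249438 counts per sample in the control group and 33966536 to 38974888 in the ZCZ group. Same-group samples correlated at 0.960 to 0.990 across genes in log2 CPM, where CPM is the count scaled to a library of 1e6 reads after normalization. The summed level of 9 keratinocyte markers was 12680 to 15360 CPM in the control and 14040 to 19530 CPM in the ZCZ samples, and that of 8 fibroblast markers was 55070 to 78300 and 43260 to 60730 CPM, so the labelled tissue was present in each library. Samples of both groups also held skeletal muscle RNA, at 3972 to 7433 CPM over 10 markers in the control and 3437 to 3818 CPM in the ZCZ samples, without overlap, and 3 of the 10 (Acta1, Myh1 and Myh2) fell. Levels of 18 hair follicle matrix and sheath markers were 745 to 4024 CPM in the control and 4971 to 16770 CPM in the ZCZ samples, and 16 of the 18 rose. In bulk tissue, fewer cells of a type and less RNA per cell cannot be told apart.

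After the low-count filter, 42 of the 46 members entered the quasi-likelihood test of edgeR, and a member is called changed at an adjusted p under 0.05 over all 15147 genes tested. The BAFF receptor gene Tnfrsf13c rose, whereas Tnfsf11 (RANKL), Tnfrsf12a (Fn14), Tnfrsf1a (TNF receptor 1) and Eda2r (the receptor of the ectodysplasin isoform A2) fell. The 1 higher member stands beside 4.28% of all genes tested, and the 4 lower members beside 3.85%. In CPM, the groups did not overlap for 2 higher members (8.45% of all genes) and for 7 lower members (8.82% of all genes). The counts of higher members lay below these shares and those of lower members above them. Of the 36 immune members tested, 31 had a log2 fold change below 0, the median over the 36 was -0.50, and 1 of the 36 was called higher and 3 lower. Of the 5 ectodysplasin and Tnfrsf19 members, 4 were above 0, with a median of 0.58, and 1 was called lower. Over all genes tested, 7414 were below 0 and the median was 0.0086. The difference between the immune and the hair members was not tested.

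These calls depended on single samples. Without con5, shiyan1, shiyan2 or shiyan4, each left out alone, edgeR called 0 genes in the whole table, and the lowest adjusted p of any gene was 0.0584, 0.0661, 0.0888 and 0.0876, respectively. At an unadjusted p under 0.05 there were then 14, 15, 15 and 15 of the 42 members, against 18 with all samples. Over all genes these were 3223 of 15279, 4208 of 15247, 3137 of 15237 and 3100 of 15238. With all samples they were 4248 of 15147. Without con2, Tnfsf11 was the 1 member called. With the skeletal muscle level as a covariate, 0 members were called and 17 had an unadjusted p under 0.05, beside 3431 of the 15147 genes. The muscle level did not overlap between the groups, so that the covariate and the group are hard to separate, and that fit called 1 of the 15147 genes. DESeq2, run on all samples, called 3 of 46 members higher (Tnfrsf13c, Edar and Edaradd) and 10 lower, namely the 4 above and Tnfsf8, Tnfsf9, Fas, Tnfrsf21, Tnfrsf23 and Tnfrsf26. Over all 18413 genes that DESeq2 fitted, 1243 were called higher and 1513 lower.

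**Figure D1:**
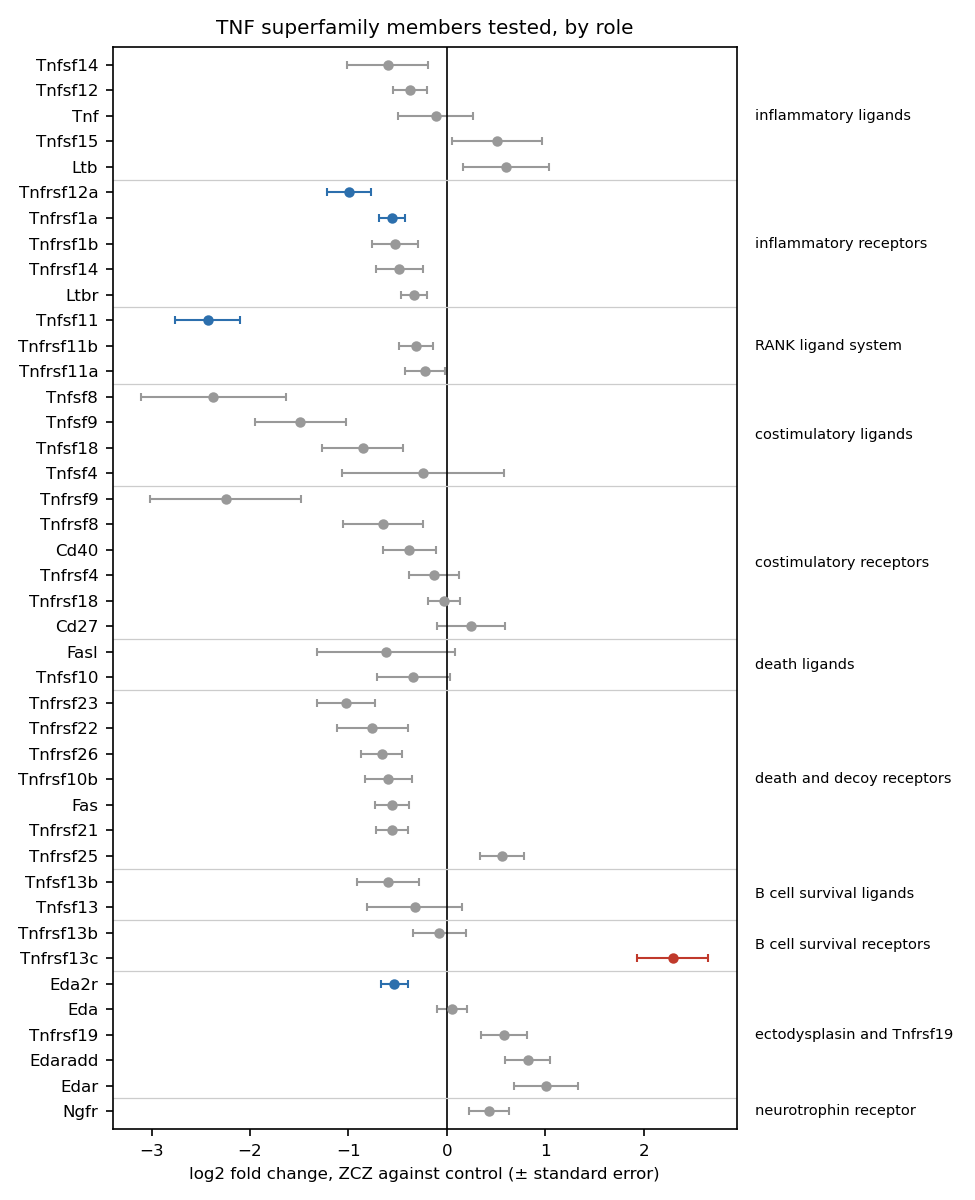
The log2 fold change between the ZCZ and control groups (x axis, bars are standard errors, 4 samples per group) of the 42 tested members, grouped by role on the y axis. Blue points are the 4 lower calls, the red point is Tnfrsf13c, the 1 higher call, and grey points are members without a call. Tnfsf11 at -2.43 lies farthest to the left.

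The largest fall among members was that of Tnfsf11 (Entrez 21943), which encodes RANKL, the cytokine that drives osteoclast formation and lymph node development and is made by T cells, stromal cells and keratinocytes. Tnfsf11 was at 8.85, 10.5, 11.1 and 17.8 CPM in con1, con2, con3 and con5, and at 1.75, 1.68, 1.76 and 3.77 CPM in shiyan1, shiyan2, shiyan4 and shiyan5. Every control sample was above every ZCZ sample, and con5 and shiyan5 were the highest of their groups. The mean was 12.1 ± 3.94 CPM (SD, n = 4) in the control and 2.24 ± 1.02 CPM (SD, n = 4) in the ZCZ group. On the log2 scale the fold change was -2.43 ± 0.33 (SE) and its adjusted p 0.0280, and the exact two-sided permutation test gave p = 0.0286, the smallest that 4 samples against 4 can give. Over each sample left out in turn, the log2 fold change of Tnfsf11 ranged from -2.80 to -2.18. Its receptor Tnfrsf11a (RANK) had a log2 fold change of -0.22 (adjusted p = 0.495), and the soluble decoy receptor Tnfrsf11b (osteoprotegerin) one of -0.32 (adjusted p = 0.264). Per kilobase of exon, the median level of Tnfsf11 was 4.83 CPM in the control, between those of Tnfrsf11a at 2.57 and Tnfrsf11b at 6.35. In the ZCZ group the median level of Tnfsf11 was 0.784 CPM per kilobase, below those of Tnfrsf11a at 2.06 and Tnfrsf11b at 5.38.

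Among lymphocyte markers, the 11 T cell markers found summed to 204 to 294 CPM in the control and 157 to 191 CPM in the ZCZ samples, without overlap. Most of that sum was Thy1, which fibroblasts also express and which was the 1 of the 11 that fell (log2 fold change -0.58, adjusted p = 0.0442). Of the 11, 8 had a log2 fold change above 0, among them Cd3e at 0.09 (adjusted p = 0.837), Cd8a at 1.39 (adjusted p = 0.108, and 0.0346 with DESeq2) and Cd8b1 at 1.61 (adjusted p = 0.0959, and 0.0371 with DESeq2). Among 8 fibroblast markers, all with a log2 fold change below 0 (median -0.58), Dcn, Lum and Thy1 fell. DESeq2 also called Col1a1, Col3a1, Pdgfra and Pdgfrb lower (adjusted p = 0.0290, 0.0272, 0.0459 and 0.0381). The part of either cell type in the value of Tnfsf11 was not tested.

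The 1 member that rose was Tnfrsf13c (Entrez 72049), which encodes the receptor through which the cytokine BAFF keeps mature B cells alive. Its counts were 8, 10, 12 and 10 in con1, con2, con3 and con5, and 52, 74, 69 and 25 in shiyan1, shiyan2, shiyan4 and shiyan5. Every ZCZ sample was above every control sample, and shiyan5 was the lowest of the ZCZ group. The mean was 0.294 ± 0.0249 CPM (SD, n = 4) in the control and 1.45 ± 0.539 CPM (SD, n = 4) in the ZCZ group. On the log2 scale the fold change was 2.29 ± 0.36 (SE), with an adjusted p of 0.0299 and an exact two-sided permutation p of 0.0286. Several defining B cell markers were near 0 in both groups. Cd79a averaged 0.140 and 0.194 CPM and Ms4a1 0.0643 and 0.0268 CPM in the control and ZCZ samples, and neither passed the filter. Over 11 B cell markers the sum was 4.23 to 14.4 CPM in the control and 7.78 to 11.0 CPM in the ZCZ samples, with 0 calls by edgeR or DESeq2 among the 6 tested, of which 5 had a log2 fold change above 0. Cd79b, the partner of Cd79a, averaged 0.973 and 1.49 CPM (log2 fold change 0.61, adjusted p = 0.313), and Fcer2a had a log2 fold change of 0.76 (adjusted p = 0.212). In the ZCZ group, the order of the samples in Tnfrsf13c (shiyan2, shiyan4, shiyan1, shiyan5, from high to low) was that of the summed hair follicle markers. In the control group it was not: con2, with the next highest sum of these markers after con3 (2614 CPM), had the lowest Tnfrsf13c, and Tnfrsf13c lay between 0.278 and 0.331 CPM while the sum ranged from 745 to 4024 CPM. Both measures come from the same libraries, and the part of hair follicles in the value of Tnfrsf13c was not tested.

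The other genes of the BAFF and APRIL system had no call. Tnfsf13b (BAFF) was at 1.80 to 3.41 CPM in the control and 1.10 to 2.27 CPM in the ZCZ samples (log2 fold change -0.60, adjusted p = 0.251). Tnfsf13 (APRIL) had a log2 fold change of -0.33 (adjusted p = 0.687), and the annotation joins it and Tnfsf12 in a read-through gene on the same strand, so their reads could be split. Tnfrsf13b (TACI), a second receptor of both ligands, had a log2 fold change of -0.07 (adjusted p = 0.880). Tnfrsf17 (BCMA), the receptor of plasma cells, was not tested at 0 to 6 counts in the control and 3 to 17 in the ZCZ samples.

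The bases upstream of Tnfsf11 and Tnfrsf13c are shown because these genes had the lowest and the highest log2 fold change of the tested members, and those of Edar because they hold one of the motifs searched. Each run gives the 250 bases before a RefSeq start on build GRCm38.p6, all on the minus strand, with a motif match in capitals where there is one.
Tnfsf11, chr14:78308044-78308293: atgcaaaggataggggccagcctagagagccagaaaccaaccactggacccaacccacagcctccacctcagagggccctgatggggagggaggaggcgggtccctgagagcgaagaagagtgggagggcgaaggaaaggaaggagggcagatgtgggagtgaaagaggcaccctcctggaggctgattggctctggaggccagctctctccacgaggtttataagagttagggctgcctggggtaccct
Tnfrsf13c, chr15:82224381-82224630: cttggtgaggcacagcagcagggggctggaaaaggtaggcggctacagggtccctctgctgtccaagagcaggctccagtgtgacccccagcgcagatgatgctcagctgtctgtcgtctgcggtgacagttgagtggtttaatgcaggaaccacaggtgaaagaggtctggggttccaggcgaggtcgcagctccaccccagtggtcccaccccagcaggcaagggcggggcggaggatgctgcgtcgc
Edar, chr10:58675697-58675946: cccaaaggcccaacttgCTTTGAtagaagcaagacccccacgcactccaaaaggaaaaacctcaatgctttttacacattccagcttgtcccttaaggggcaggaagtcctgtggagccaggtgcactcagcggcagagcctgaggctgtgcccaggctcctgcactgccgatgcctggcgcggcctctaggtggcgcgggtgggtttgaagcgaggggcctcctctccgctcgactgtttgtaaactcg
The motifs, searched on both strands, were the NF-kappaB motif, TGANTCA, which AP-1 factors bind, and CTTTGA, the core of the LEF and TCF motif. Among 32851 promoters of the same length, 7.25% held the first, 6.75% the second and 13.8% the third. Of the 40 upstream runs found for 36 of the members, 4, 6 and 7 held them. The run of Edar held CTTTGA from base -233, whereas the runs of Tnfsf11, Tnfrsf13c, Tnfrsf12a, Tnfrsf1a and Eda2r held none of the 3 motifs. A match is a description of the letters and not a binding site.

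Among receptors of inflammatory ligands, Tnfrsf12a and Tnfrsf1a fell and the other 3 had no call. Tnfrsf12a (Entrez 27279) encodes Fn14, the receptor of TWEAK, which is known to be induced in injured tissue. It was at 23.6, 24.2, 26.1 and 45.9 CPM in con1, con2, con3 and con5, and at 13.4, 14.1, 14.97 and 17.8 CPM in shiyan1, shiyan2, shiyan4 and shiyan5. The groups did not overlap, and con5 stood above the other control samples. Its log2 fold change was -0.99 ± 0.22 (SE, adjusted p = 0.0352) with all samples and -0.71 without con5, where the call was lost. With the muscle level as a covariate it was -1.08 (adjusted p = 0.146).

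Tnfrsf1a (Entrez 21937) encodes the widely expressed death domain receptor of Tnf. It was at 169, 160, 145 and 210 CPM in the 4 control samples and at 115, 101, 117 and 132 CPM in the 4 ZCZ samples, in the order used above. The lowest control sample, con3, was above the highest ZCZ sample, shiyan5. The mean was 171 ± 27.9 CPM in the control and 116 ± 12.7 CPM in the ZCZ group (SD, n = 4). The difference on the log2 scale was -0.56 ± 0.13 (SE), and its adjusted p was 0.0393. Tnfrsf1a also had the highest level of any member per kilobase of exon, with a median of 63.6 CPM in the control and 44.8 CPM in the ZCZ group. In the control, Tnfrsf1b, Ltbr, Tnfrsf14 and Tnfrsf12a followed at 17.1, 16.0, 14.1 and 13.0 CPM per kilobase.

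**Figure D2:**
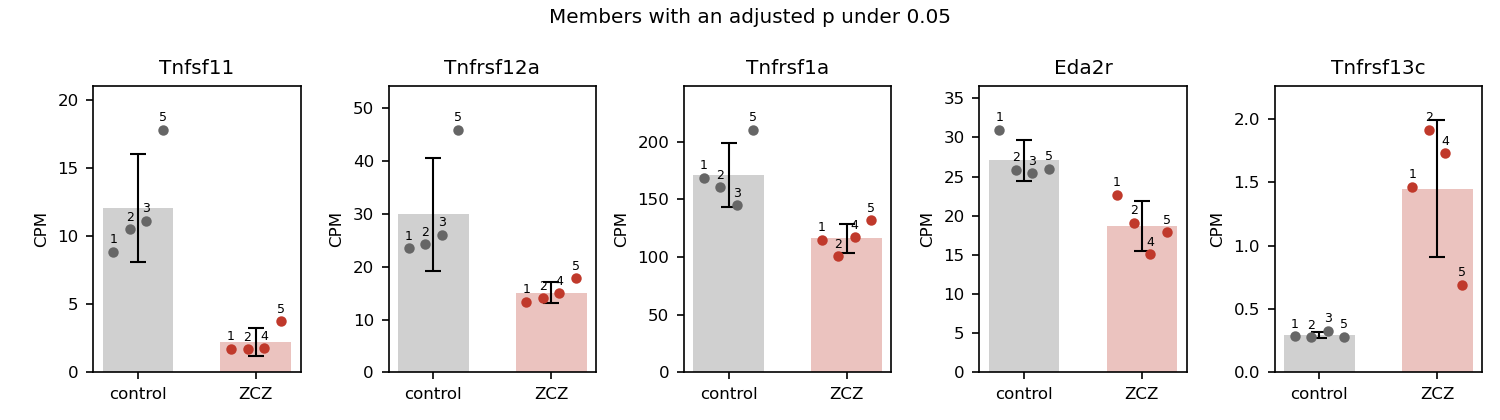
CPM (y axes, linear from 0) of the 5 called members in each control (grey) and ZCZ (red) sample, with the mean (bar) and SD (error bar, n = 4) and the sample number above each point. For each gene the groups do not overlap, and con5 is the highest control sample for Tnfsf11, Tnfrsf12a and Tnfrsf1a.

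Tnfrsf1b (TNF receptor 2), found mainly on leukocytes and endothelium, was at 44.8 to 81.9 CPM in the control and 31.1 to 61.4 CPM in the ZCZ samples (log2 fold change -0.52, adjusted p = 0.182). Ltbr, the lymphotoxin beta receptor, had a log2 fold change of -0.34 (adjusted p = 0.141) and Tnfrsf14 (HVEM) one of -0.48 (adjusted p = 0.226). None of the 5 inflammatory receptors was above 0.

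None of the inflammatory ligands was called. Tnf was at 1.56, 1.58, 2.20 and 2.96 CPM in con1, con2, con3 and con5, and at 2.54, 1.81, 0.803 and 2.55 CPM in shiyan1, shiyan2, shiyan4 and shiyan5. The groups overlapped, and shiyan4 was the lowest of the 8 samples. The log2 fold change of Tnf was -0.11 ± 0.38 (SE, adjusted p = 0.870), and it lay above 0 without con5 (0.11) or without shiyan4 (0.14). Tnfsf12 (TWEAK), the ligand of Tnfrsf12a, had a log2 fold change of -0.38 (adjusted p = 0.188). Tnfsf14 (LIGHT), which binds Ltbr and Tnfrsf14, was at -0.60 (adjusted p = 0.373), Ltb at 0.60 (adjusted p = 0.400) and Tnfsf15 (TL1A) at 0.51 (adjusted p = 0.494). Lta was not tested, at 1 to 5 counts in the control and 3 to 12 counts in the ZCZ samples.

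No macrophage or neutrophil marker was called by edgeR. The 10 macrophage and monocyte markers summed to 2588 to 2983 CPM in the control and 1487 to 2643 CPM in the ZCZ samples, and the 9 neutrophil markers to 572 to 1503 and 169 to 655 CPM, with overlap in both lists. Of the macrophage and monocyte markers, 9 of the 10 had a log2 fold change below 0 (median -0.44). Cd14 had the lowest, at -1.92 (adjusted p = 0.0610, and 0.0185 with DESeq2), and its groups did not overlap. Ccr2 was the 1 above 0, at 0.35. Of the neutrophil markers, 6 of the 7 tested had a log2 fold change below 0 (median -1.19), among them S100a8 at -1.27 (adjusted p = 0.0804, and 0.00637 with DESeq2) and S100a9 at -1.36 (adjusted p = 0.0795, and 0.00537 with DESeq2). S100a8 and S100a9 made up most of the neutrophil sum in each sample. Cxcr2 was at -1.09 (adjusted p = 0.240, and 0.268 with DESeq2) and Csf3r at -1.19 (adjusted p = 0.176, and 0.166 with DESeq2). The surface marker Ly6g was not tested and averaged 0.0710 and 0.0952 CPM. The part of these cells in the values of the inflammatory members was not tested.

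The costimulatory members had no call by edgeR with all samples and neither covariate nor block. In those with the lowest fold changes the control samples differed widely from each other. Tnfsf8 (CD30 ligand) was at 15.9, 4.13, 2.07 and 18.5 CPM in con1, con2, con3 and con5, and at 3.50, 1.09, 0.778 and 2.50 CPM in shiyan1, shiyan2, shiyan4 and shiyan5. The groups overlapped, since con3 was below shiyan1 and shiyan5, and con1 and con5 were far above the rest. Its log2 fold change was -2.37 ± 0.74 (SE, adjusted p = 0.0759). Tnfsf9 (4-1BB ligand) was at 3.30, 1.19, 1.27 and 4.68 CPM in the control and at 1.01, 0.777, 0.753 and 1.16 CPM in the ZCZ samples. The groups did not overlap, although con2 and shiyan5 lay close together. Its log2 fold change was -1.49 ± 0.46 (SE, adjusted p = 0.0768).

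Tnfrsf9 (4-1BB), the receptor of Tnfsf9 on activated T cells, was also highest in con5 and then con1. It was at 32.9, 10.3, 6.36 and 72.3 CPM in con1, con2, con3 and con5, and at 7.67, 3.08, 3.16 and 11.8 CPM in shiyan1, shiyan2, shiyan4 and shiyan5. The groups overlapped, and con5 was the highest sample. Tnfrsf9 had a log2 fold change of -2.25 ± 0.77 (SE, adjusted p = 0.0967). Without con1 and con5, an alternative chosen after the data were seen, the log2 fold changes of Tnfsf8, Tnfsf9 and Tnfrsf9 were -0.67, -0.41 and -0.38, against -2.37, -1.49 and -2.25 with all samples. Because con1 and con5 were the highest control samples for these genes, leaving them out had to shrink the falls. That choice cannot show how stable the falls are. With the muscle level as a covariate, the log2 fold changes of Tnfsf8, Tnfsf9 and Tnfrsf9 were -0.45, -0.58 and -0.91. The summed muscle markers were at 7433, 4793, 3972 and 5286 CPM in con1, con2, con3 and con5. That sum was highest in con1, whereas Tnfsf8, Tnfsf9 and Tnfrsf9 were highest in con5. The part of muscle in the values of these genes was not tested. On all samples DESeq2 called Tnfsf8 (adjusted p = 0.0267) and Tnfsf9 (adjusted p = 0.0117) lower. With the sample number as a block, edgeR called Tnfsf8 (log2 fold change -2.35, adjusted p = 0.00651) and Tnfrsf9 (-2.17, adjusted p = 0.00387) lower, but not Tnfsf9 (adjusted p = 0.1155). Tnfsf8 was also called without con3 (adjusted p = 0.0416). The sample numbers were not taken to pair the samples. In the ZCZ group, shiyan1 and shiyan5 were the highest samples for Tnfsf8, Tnfsf9 and Tnfrsf9. Tnfrsf9 overlaps Camta1 on the opposite strand, and the strand setting of the counting is not stated.

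The inner of the starts given for Tnfrsf9 is shown because an NF-kappaB motif lies just before it. This run of 30 bases begins 52 bases before the start on the plus strand of GRCm38.p6, and the capitals mark the motif, which matched at overlapping positions. An NF-kappaB motif also lay before a start of Ltb, Tnfrsf25 and Tnfrsf8, which had log2 fold changes of 0.60, 0.56 and -0.65 and no call. The run of Tnfsf8 held none of the 3 motifs. A role of the motif in these values was not tested.
Tnfrsf9, chr4:150927947-150927976: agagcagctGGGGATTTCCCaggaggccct

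**Figure D3:**
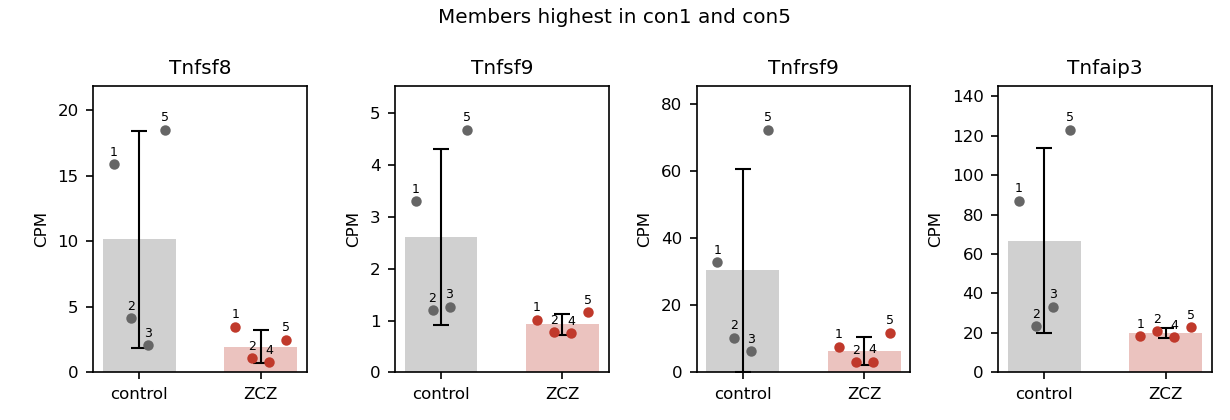
CPM (y axes, linear from 0) of Tnfsf8, Tnfsf9, Tnfrsf9 and the NF-kappaB inhibitor Tnfaip3 in each control (grey) and ZCZ (red) sample, with the mean (bar), SD (error bar, n = 4) and sample number. In all 4 panels con5 is the highest sample and con1 the next.

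Of the remaining costimulatory ligands, Tnfsf18 (GITR ligand) had a log2 fold change of -0.86 (adjusted p = 0.212) and Tnfsf4 (OX40 ligand) one of -0.24 (adjusted p = 0.870). Cd40lg, at 1 to 15 counts in the control and 2 to 10 in the ZCZ samples, and Cd70, at 0 to 1 and 0 to 5 counts, were not tested. Of the receptors, Tnfrsf8 (CD30) was at -0.65 (adjusted p = 0.328), Cd40 at -0.38 (adjusted p = 0.388) and Cd27 at 0.24 (adjusted p = 0.673). The regulatory T cell receptors Tnfrsf18 (GITR) and Tnfrsf4 (OX40) were at -0.03 (adjusted p = 0.923) and -0.13 (adjusted p = 0.775). Of 8 regulatory T cell markers, which include these 2 receptors and Tnfrsf9, the IL-2 receptor chain Il2ra fell (log2 fold change -1.15, adjusted p = 0.0337), and the lineage factor Foxp3 was at 2.11 and 2.12 CPM on average in the control and ZCZ groups. This list summed to 51.4 to 132 CPM in the control and 41.9 to 52.3 CPM in the ZCZ samples, with con1 and con5 the highest. Tnfrsf9 alone made up 32.9 of the 86.9 CPM in con1 and 72.3 of the 132 CPM in con5. The sum is thus in part a value of Tnfrsf9 itself. The part of regulatory T cells in the costimulatory values was not tested.

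None of the death ligands or of the death and decoy receptors was called by edgeR, and 6 of the 7 receptors had a log2 fold change below 0. DESeq2 called Fas, Tnfrsf21, Tnfrsf23 and Tnfrsf26 lower, with adjusted p of 0.0224, 0.0159, 0.00558 and 0.0203. The decoy receptor Tnfrsf23, which binds TRAIL without passing on a death signal, was at 36.7, 44.0, 41.3 and 68.1 CPM in con1, con2, con3 and con5, and at 27.4, 16.2, 15.1 and 34.8 CPM in shiyan1, shiyan2, shiyan4 and shiyan5. The groups did not overlap, and con1 and shiyan5 were the closest samples. Its log2 fold change was -1.03 ± 0.30 (SE, adjusted p = 0.0639). Tnfrsf22, a near-identical copy of Tnfrsf23, was at -0.76 (adjusted p = 0.204) and the related Tnfrsf26 at -0.66 (adjusted p = 0.0773). Reads shared by Tnfrsf22 and Tnfrsf23 may have been split between them, and an antisense gene overlaps all 3, so these values are uncertain.

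Tnfrsf21 (death receptor 6) was at 29.4, 28.8, 33.9 and 46.3 CPM in the control and at 23.4, 20.1, 24.7 and 26.0 CPM in the ZCZ samples. No overlap was seen between the groups, and its log2 fold change was -0.56 ± 0.16 (SE, adjusted p = 0.0653). Fas, the receptor that triggers apoptosis on contact with Fas ligand, was at 14.1 to 21.9 CPM in the control and 10.9 to 15.4 CPM in the ZCZ samples (log2 fold change -0.56, adjusted p = 0.0752). Tnfrsf10b, the TRAIL receptor of the mouse with a death domain, was at -0.59 (adjusted p = 0.138). Tnfrsf25 (death receptor 3), the receptor of Tnfsf15, was the only receptor of this group above 0, at 0.56 (adjusted p = 0.142). The ligands Fasl and Tnfsf10 (TRAIL) were at -0.62 (adjusted p = 0.595) and -0.34 (adjusted p = 0.578).

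Of the ectodysplasin and Tnfrsf19 members, Eda2r fell, and Edar, Edaradd and Tnfrsf19 had log2 fold changes above 0 without a call by edgeR. DESeq2 called Edar (adjusted p = 0.0211) and Edaradd (adjusted p = 0.00762) higher. Eda2r (Entrez 245527) was at 31.0, 25.9, 25.4 and 26.0 CPM in con1, con2, con3 and con5, and at 22.7, 19.1, 15.1 and 17.9 CPM in shiyan1, shiyan2, shiyan4 and shiyan5. Control and ZCZ samples did not overlap, and con1 was the highest sample. The mean was 27.1 ± 2.6 CPM in the control and 18.7 ± 3.1 CPM in the ZCZ group (SD, n = 4). The difference on the log2 scale was -0.53 ± 0.13 (SE), and its adjusted p was 0.0453. The call was lost when any 1 of the samples was left out, with log2 fold changes of -0.63 to -0.45. With the muscle level as a covariate its log2 fold change was -0.34 (adjusted p = 0.293), and the part of muscle in this value was not tested.

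Edar, the receptor of the ectodysplasin isoform A1, was at 2.31, 1.28, 1.13 and 0.986 CPM in con1, con2, con3 and con5, and at 3.36, 3.63, 2.33 and 2.08 CPM in shiyan1, shiyan2, shiyan4 and shiyan5. The groups overlapped through con1, which was above shiyan5. Its log2 fold change was 1.01 ± 0.32 (SE, adjusted p = 0.0823), and 1.33 without con1 (adjusted p = 0.0353). Edaradd, which links Edar to TRAF6, was at 10.3, 11.5, 8.07 and 5.10 CPM in the control and at 17.5, 13.2, 15.8 and 15.3 CPM in the ZCZ samples. The groups did not overlap, and the log2 fold change was 0.82 ± 0.23 (SE, adjusted p = 0.0582).

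Tnfrsf19 (TROY), a receptor of hair follicle cells, was at 84.5, 39.8, 49.9 and 39.6 CPM in con1, con2, con3 and con5, and at 79.0, 83.2, 88.7 and 68.8 CPM in shiyan1, shiyan2, shiyan4 and shiyan5. The groups overlapped through con1 alone. The log2 fold change was 0.58 ± 0.23 (SE, adjusted p = 0.144), and 0.89 without con1 (adjusted p = 0.0266). Eda itself, the ligand, was at 8.10, 8.91, 9.50 and 6.39 CPM in the control and at 9.96, 7.80, 7.91 and 8.46 CPM in the ZCZ samples, with overlapping groups (log2 fold change 0.05 ± 0.16 SE, adjusted p = 0.853).

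Beside these members, 16 of 18 hair follicle markers rose in the ZCZ samples. They were the transcription factors Lef1 (log2 fold change 1.74, adjusted p = 0.0299), Msx2, Foxn1, Hoxc13, Dlx3 and Gata3, the inner sheath keratins Krt25, Krt27, Krt28, Krt71 and Krt73, the hair shaft keratins Krt85 (2.70, adjusted p = 0.0319), Krt31, Krt35 and Krt86, and Padi3, with log2 fold changes from 0.89 for Gata3 to 4.77 for Krt86. The control sample con1, which had the highest Edar and Tnfrsf19 of its group, was at 882 CPM over these markers, below con2 and con3 at 2614 and 4024 CPM. The part of hair follicle RNA in the values of the hair members was not tested.

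**Figure D4:**
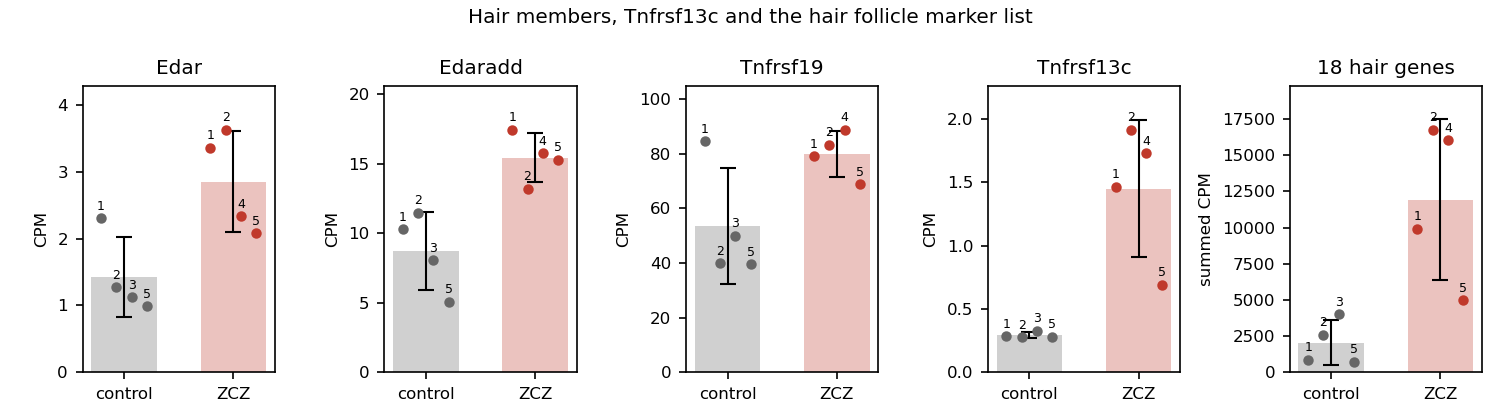
CPM (y axes, linear from 0) of Edar, Edaradd, Tnfrsf19 and Tnfrsf13c and, in the last panel, the summed CPM of 18 hair follicle markers, in each control (grey) and ZCZ (red) sample, with the mean (bar), SD (error bar, n = 4) and sample number. The control sample con1 lies above the other control samples for Edar and Tnfrsf19, whereas shiyan5 is the lowest ZCZ sample for Edar, Tnfrsf19, Tnfrsf13c and the markers.

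Ngfr, the neurotrophin receptor of Schwann cells, nerve endings and some skin cells, was at 4.62, 3.55, 2.92 and 5.21 CPM in con1, con2, con3 and con5, and at 4.85, 5.70, 5.80 and 5.57 CPM in shiyan1, shiyan2, shiyan4 and shiyan5. The groups overlapped through con5. Ngfr had a log2 fold change of 0.43 ± 0.20 (SE, adjusted p = 0.200). The 8 Schwann cell markers summed to 137 to 173 CPM in the control and 190 to 226 CPM in the ZCZ samples, without overlap. All 8 had a log2 fold change above 0, with 0 calls by edgeR. DESeq2 called Erbb3 (adjusted p = 0.0288) and Cdh19 (adjusted p = 0.0440) higher. The part of Schwann cells in the value of Ngfr was not tested.

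Downstream of the receptors, 39 genes of signalling were tested, of which 29 were adaptors and kinases. The other 10 were genes of the linear ubiquitin complex, deubiquitinases, and the adaptors Tnip1, Tnip2, Optn and Azi2. Of the 39, 0 were called higher and 3 lower by edgeR, beside 4.28% and 3.85% of all genes tested. Their median log2 fold change was -0.08, and 23 lay below 0. DESeq2 called 2 higher (Map3k5 and Nsmaf) and 6 lower, beside 1243 and 1513 of 18413 genes. Birc3, a ubiquitin ligase induced by NF-kappaB, fell from 64.8 ± 5.96 to 45.8 ± 5.51 CPM (SD, n = 4), which is -0.50 ± 0.11 (SE) on the log2 scale and had an adjusted p of 0.0345. Rnf31, the catalytic subunit of the linear ubiquitin complex, fell by 0.42 on the log2 scale (adjusted p = 0.0391). Ripk3, the kinase of necroptosis, fell by 0.83 on the log2 scale (adjusted p = 0.0460), with groups that overlapped.

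Mlkl, the pore protein that Ripk3 activates, had a log2 fold change of -0.69 (adjusted p = 0.0524). Tnfaip3 (A20), which ends NF-kappaB signalling, averaged 66.7 ± 46.8 CPM (SD, n = 4) in the control and 20.1 ± 2.43 CPM (SD, n = 4) in the ZCZ group. There was no overlap between the groups, con1 and con5 were the highest samples, and the adjusted p was 0.0529. The adaptors Tradd, Traf2 and Fadd and the sheddase Adam17, which releases Tnf, had log2 fold changes of 0.15, 0.08, 0.05 and -0.14, with no call.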

How the data were processed

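Total RNA of the wound skin was ribosome-depleted and sequenced from libraries with dUTP in the second strand. The authors deposited counts of reads per gene for 18540 genes in 1 table, without normalization. The aligner, counting program, genome build, annotation and strand setting are not given in the sources used here. A loose strand setting or shared reads would affect overlapping and near-identical members. Samples were grouped by their titles, 4 per group.

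The analysis used edgeR 4.0.16 under R 4.3.3, with these steps: filterByExpr (CPM cutoff 0.272, 15147 genes kept), TMM normalization, the quasi-likelihood test without covariates and Benjamini-Hochberg adjustment over all genes tested, with calls at 0.05. Standard errors came from the F statistic. Log2 CPM used a prior count of 2. The exact two-sided permutation test ran over 70 arrangements of log2 CPM. Levels between genes were divided by the union exon length of GENCODE vM21, matched by symbol for 46 members. Promoters came from RefSeq, GRCm38.p6, with an entry for 36 members. The scripts were tested on simulated data.

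The members, gene lists and tests were chosen with earlier results of these data known. Every member is named. Called members, members whose groups do not overlap, Tnf, the hair members and Ngfr have values in each sample, and so have Tnfsf8 and Tnfrsf9, which were added after their values were seen. Of the signalling and marker lists, called genes are named, and a few others were named after their values were seen. Of the marker genes, 1 is not reported here. Alternatives were DESeq2 1.42.0, RLE size factors, no filter, a minimum of 10 counts in every sample, an absolute log2 fold change over 1, the muscle marker score as a covariate, blocking on the sample number, leaving out every sample singly and, added after the data were seen, leaving out con1 and con5 or shiyan2 and shiyan4.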

Additional observations from a re-analysis of the deposited data

Results flagged for a closer look

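In 5 of the 84 sets of 4 samples examined (each tested member in each group, in log2 CPM), 1 sample stood apart from the other 3, the share of the group's range taken by its gap to the nearest sample passing Dixon's critical value. Chance gives about 1 in 20. Among the called members, con5 was highest for Tnfrsf12a in the control group (share 0.847, 5.52 against 4.56 to 4.71), con1 for Eda2r (0.892, 4.96 against 4.67 to 4.70) and con3 for Tnfrsf13c (0.865, at 12 counts). In the ZCZ group, shiyan5 was highest for Tnfsf11 (0.947, 1.94 against 0.80 to 0.86) and lowest for Tnfrsf4 (0.848, 1.27 against 1.63 to 1.70).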

How the results depend on the processing

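With edgeR on all samples, 1 member was higher and 4 lower, with 648 and 583 of all genes and 0 and 3 of the signalling genes. DESeq2 called 3 and 10 of 46 members, 1243 and 1513 of 18413 genes and 2 and 6 of 39 signalling genes. An absolute log2 fold change over 1 left 1 lower member, 326 and 189 genes and 0 lower signalling genes. A minimum of 10 counts in every sample left 0 higher members, since Tnfrsf13c was then not tested. With the skeletal muscle score, 0 members were called in either direction, with 0 higher and 1 lower of all genes and 0 lower signalling genes. Without con1 and con5 these were 0 and 0 members, 4 and 9 genes and 0 lower signalling genes. At an unadjusted p under 0.05 there were then 15 members and 3755 of 15443 genes. Without shiyan2 and shiyan4 the calls were 0 and 0 members, 0 and 0 genes and 0 lower signalling genes. At an unadjusted p under 0.05 there were then 7 members and 1980 of 15338 genes. Over each sample left out in turn, 0 to 3 members were higher and 0 to 6 lower, 0 to 886 genes higher and 0 to 868 lower, and 0 to 1 signalling genes higher and 0 to 5 lower. RLE size factors and no filter kept each of these counts within 1.5 times.

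The log2 fold change of Tnf turned above 0 with the block (0.22), without con1 and con5 (0.0154) and without shiyan2 and shiyan4 (0.29), and ranged from -0.28 to 0.14 over each sample left out. That of Eda turned below 0 with the skeletal muscle score (-0.0563) and without con1 and con5 (-0.12), and ranged from -0.0495 to 0.13 over each sample left out. Neither was called in any fit. The log2 fold changes of Tnfsf11, Tnfrsf12a, Tnfrsf1a, Eda2r and Tnfrsf13c kept their sign under every alternative that tested them. The cause of these changes was not tested, beyond the smaller number of samples.

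The numbers 1, 2 and 5 occur in both groups. Same-numbered samples correlated at -0.10, -0.06 and 0.32 in their deviations from the group means, so the numbers were not taken to pair them. With the number as a block, 0 members were higher and 4 lower (Tnfsf11, Tnfrsf12a, Tnfsf8 and Tnfrsf9), with 301 higher and 253 lower of all genes and 0 lower signalling genes. In that fit 16 members and 2546 of 15147 genes had an unadjusted p under 0.05. Of the 3 numbers, 1 had samples that each correlated best with their own number.

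Depth limits Lta, Cd70, Cd40lg and Tnfrsf17, which had at most 17 counts in a sample, and makes Tnfrsf13c uncertain in the control group.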

Other observations

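Endothelial, mast and plasma cells, which a wound biopsy could hold, had no marker called by edgeR. DESeq2 called the endothelial markers Pecam1 (log2 fold change -0.80, adjusted p = 0.0304) and Cdh5 (-0.92, adjusted p = 0.0467) lower. The 7 endothelial markers, all with a log2 fold change below 0 (median -0.72), summed to 336 to 905 CPM in the control and 292 to 557 CPM in the ZCZ samples. The 7 mast cell markers summed to 167 to 258 and 164 to 211 CPM. The 7 plasma cell markers, of which the epithelial gene Sdc1 made up most of the sum, came to 379 to 511 and 438 to 565 CPM.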
